A study of Mus musculus with 2 samples.

Results

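The genes described here are 47 transcription factors that build tissues other than blood, of 21853 protein-coding genes in the annotation: PAX, SOX, NKX, LIM-homeobox, sine oculis-type, OTX, FOX, HAND, T-box, CDX, GATA, MSX and DLX factors with the neurogenic and myogenic bHLH factors. They were chosen by name as regulators of brain, muscle, skeleton, kidney, gut, pancreas, heart and limb, and the rule uses no measured value. Earlier results of these data were known when they were chosen. All 47 matched a gene of GENCODE mouse release M21. Chromatin accessibility was profiled in adult mouse haematopoietic stem cells (strain C57BL/6J, age 5 to 6 weeks) by ATAC-seq, in which a transposase cuts into open DNA and leaves sequencing adapters. There is 1 group of 2 libraries, labelled biological replicates 1 and 2, with no treatment and no other cell type. Replicate 2 started from 50000 cells and the labels give no cell number for replicate 1, no sorting markers and no sex. Both libraries carry the same donor identifier, so the spread between them may be technical in part.

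Such factors act as switches of cell identity, and most are transcribed in few tissues and for short periods of development. Their promoters are often rich in CpG, a dinucleotide that is depleted where DNA is methylated in the germ line. In cells of another lineage these promoters are commonly held silent by Polycomb proteins, which mark histone H3 at lysine 27, and in embryonic stem cells many carry active and repressive marks at once. A promoter can therefore be accessible without being transcribed, and accessibility is what was measured here. Some of the genes are not strangers to blood: CDX factors act upstream of Hox genes in embryonic blood formation, shown in zebrafish and in mouse embryonic stem cells, GATA6 shapes resident macrophages of the mouse peritoneum, and FOXC1 maintains the stromal niche cells of mouse bone marrow.

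The files are lists of peaks on the mm10 build, and read depth is unknown. The conservative IDR thresholded list, which holds peaks that recur between the libraries by the irreproducible discovery rate (IDR), is the main list, with 53241 peaks in 31532 merged regions. A further 3 lists come from both libraries and an IDR thresholded and a permissive pseudoreplicated list from each library alone. Signal is the authors' value for a peak, with no stated scaling, so it ranks peaks within a list and is not an amount. In such bulk samples a region open in few cells and one weakly open in all cannot be told apart. The replicate lists differ in length, with 34588 regions in replicate 1's IDR thresholded list and 22434 in replicate 2's. Of 11 marker genes of stem and progenitor cells, 6 had a promoter region in the main list, led by Flt3 (signal 11.44), Ctnnal1 (10.77) and Ptprc (9.02), while Ly6a, Slamf1, Procr and Fgd5 had one in the permissive lists only and Hoxb5 also in replicate 1's IDR thresholded list. Markers of other cells that a marrow sample could hold were accessible in 2 of 9 cases for stroma (Col1a1 at 7.56 and Pdgfrb at 5.79). For endothelium it was 2 of 7 (Cdh5 at 7.38 and Nos3 at 7.28), and for neural and glial cells also 2 of 7. Of the latter, Snap25 had 15.20, above every stem and progenitor marker, and Mbp had 4.43. Over all protein-coding genes the share in the main list was 51.5%, near the 54.5% of the stem and progenitor markers. In the permissive replicated list the counts were 11 of 11 for stem and progenitor cells, 5 of 9 for stroma, 6 of 7 for endothelium (with Pecam1 at 6.44 and Emcn at 5.61) and 3 of 7 for neural and glial cells. Of all protein-coding genes, 64.9% had a promoter region in that list. No list held a promoter region of the stromal markers Lepr, Adipoq, Sp7 and Bglap, of the endothelial marker Stab2, or of the neural and glial markers Dcx, Gfap and Rbfox3. The part of such cells in the results was not tested.

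Isl1, Nkx6-1, Tbx3, Pax9, Foxa1 and Pax6 had an accessible promoter in the main list. That is 6 of 47 genes, or 12.8% (95% Wilson interval 5.98 to 25.2, which covers counting error only), against 51.5% of all protein-coding genes. A gene has a promoter region where a region's summit is at most 1 kb from a transcription start site (TSS) of one of its protein-coding transcripts. Most of the 6 were weak among promoters. Their median signal was 6.78, against 9.81 for all genes with a promoter region, and only Isl1 was above the middle of all promoter regions, at percentile 55.8. In percentiles the others were at 37 (Nkx6-1), 28.5 (Tbx3), 13.3 (Pax9), 12.4 (Foxa1) and 7.06 (Pax6). All 6 regions were also narrower, at 448 to 687 bp, than the median promoter region of 836 bp.

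Sequences around the accessible summits are shown because they lie in the promoter regions of these genes that were open in blood stem cells. Each is read 5′ to 3′ on the gene's strand from GRCm38.p6 (RefSeq), within 100 bases of the summit and without annotated exon bases. Capitals mark matches to motifs searched on both strands. The letters searched were AGATAA for GATA factors, with CCGGAAG for ETS factors and TGTGGT for RUNX factors, then GGGCGG for SP and KLF factors and CCAAT for NFY, besides the core motifs of NRF1 and CTCF. None contains another. Fewer than 30 such bases were left at Pax6 and Pax9, whose summits lie in exons, so theirs are not printed. The summits of Tbx3 and Foxa1 also lie in exons, so their printed stretches stop just short of the summit.
Isl1, chr13:116309690-116309804, minus strand: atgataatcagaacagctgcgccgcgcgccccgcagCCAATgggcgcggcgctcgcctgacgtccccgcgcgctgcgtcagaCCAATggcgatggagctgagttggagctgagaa
Nkx6-1, chr5:101665310-101665510, minus strand: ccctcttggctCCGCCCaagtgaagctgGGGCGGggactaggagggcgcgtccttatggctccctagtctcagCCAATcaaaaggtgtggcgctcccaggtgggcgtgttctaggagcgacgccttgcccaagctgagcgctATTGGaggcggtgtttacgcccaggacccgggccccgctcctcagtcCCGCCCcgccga
Tbx3, chr5:119670572-119670668, plus strand: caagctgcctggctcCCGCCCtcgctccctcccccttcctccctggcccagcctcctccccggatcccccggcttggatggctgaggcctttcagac
Foxa1, chr12:57546917-57547012, minus strand: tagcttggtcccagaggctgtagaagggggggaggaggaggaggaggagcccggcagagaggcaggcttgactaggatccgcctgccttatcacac

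The CCAAT box of NFY was the motif these summits shared most often, in 4 of the 6 windows of 201 bp (Isl1, Nkx6-1, Pax6 and Pax9), against 33.9% of the 11226 promoter windows of the list. The printed Isl1 sequence holds the box at 2 places, and that of Nkx6-1 once on each strand. GGGCGG was found at Nkx6-1, Pax9 and Tbx3, against 59.4% of promoter windows. AGATAA was found once, in the Isl1 window outside the printed part, against 2.59% of promoter windows. No window of the 6 held the ETS, RUNX, NRF1 or CTCF motif, which 16.1%, 9.83%, 1.43% and 3.47% of promoter windows held. With 6 windows these shares are a description only, and the CTCF motif was added after the regions were seen.

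Isl1 encodes a LIM-homeodomain factor of motor neurons and heart progenitors, and its promoter had the highest signal of the group. The signal was 9.86 in the main list, 11.89 in replicate 1 and 7.26 in replicate 2, in the pseudoreplicated lists. Both libraries therefore placed it first among the 47 genes. The region spans chr13:116309511-116309958, and its summit was at -15 bp from the 5′-most TSS. Only replicate 2's IDR thresholded list held the region, and in replicate 1 it was in the permissive list alone.

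Nkx6-1 encodes a homeodomain factor of the ventral neural tube and of pancreatic beta cells. Its promoter had a signal of 8.20 in the main list, 9.14 in replicate 1 and 6.79 in replicate 2, and both replicates' IDR thresholded lists held it. The region spans chr5:101665100-101665749, and its summit was at -414 bp from the single annotated TSS, outside any exon.

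Tbx3, a T-box factor of limb, mammary gland and the conduction system of the heart, had a signal of 7.49 in the main list, 9.46 in replicate 1 and 5.19 in replicate 2. The region spans chr5:119670383-119671069 with its summit 3 bp from the 5′-most TSS, in an exon, and the start of the antisense noncoding gene Tbx3os1 lay within 1 kb. Neither replicate's IDR thresholded list held it, and both permissive lists did.

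Pax9, a paired-box factor of pharyngeal pouches, teeth and vertebrae, had a signal of 6.07 in the main list, 7.13 in replicate 1 and 4.82 in replicate 2, in both replicates' IDR thresholded lists. The region spans chr12:56695347-56696004, and its summit was at -33 bp from the downstream one of its 2 TSSs. Pax6, a paired-box factor of eye, forebrain and pancreas, had a signal of 5.34, with 6.72 in replicate 1 and 3.85 in replicate 2, and only replicate 1's IDR thresholded list held it. The Pax6 region spans chr2:105675122-105675717, with its summit at -41 bp from an internal TSS, number 5 of 10 from the 5′ end, and no region of the main list lay at the 5′-most one. With the 5′-most TSS only, Pax6 and Pax9 lost their region and 4 members were left, against 47.9% of all genes.

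Foxa1 encodes a forkhead factor that opens chromatin in gut, liver, lung and breast. It had a signal of 5.97 in the main list, 5.20 in replicate 1 and 5.83 in replicate 2, and both replicates' IDR thresholded lists held it. Of the 10 members in both permissive lists it was the 1 whose signal was higher in replicate 2. The region spans chr12:57546631-57547256, and its summit was at -791 bp from the protein-coding TSS and 4 bp inside a transcript annotated as noncoding (processed transcript) of the same gene. Foxa1 was also the member closest to the 1 kb limit from inside, and Neurog2, with a region 1154 bp downstream of its TSS, was the closest from outside.

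None of the 6 accessible promoter regions had the summit within 1 kb of another gene's protein-coding TSS. Leaving out summits shared with the promoter of another protein-coding gene left 6 members, against 41.4% of all genes. Of the 47 members, 31 had no other protein-coding TSS within 50 kb (66.0%, against 23.7% of all genes), and 5 of these 31 had a promoter region (16.1%), against 46.1% of the 5169 such genes in all.

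**Figure D1:**
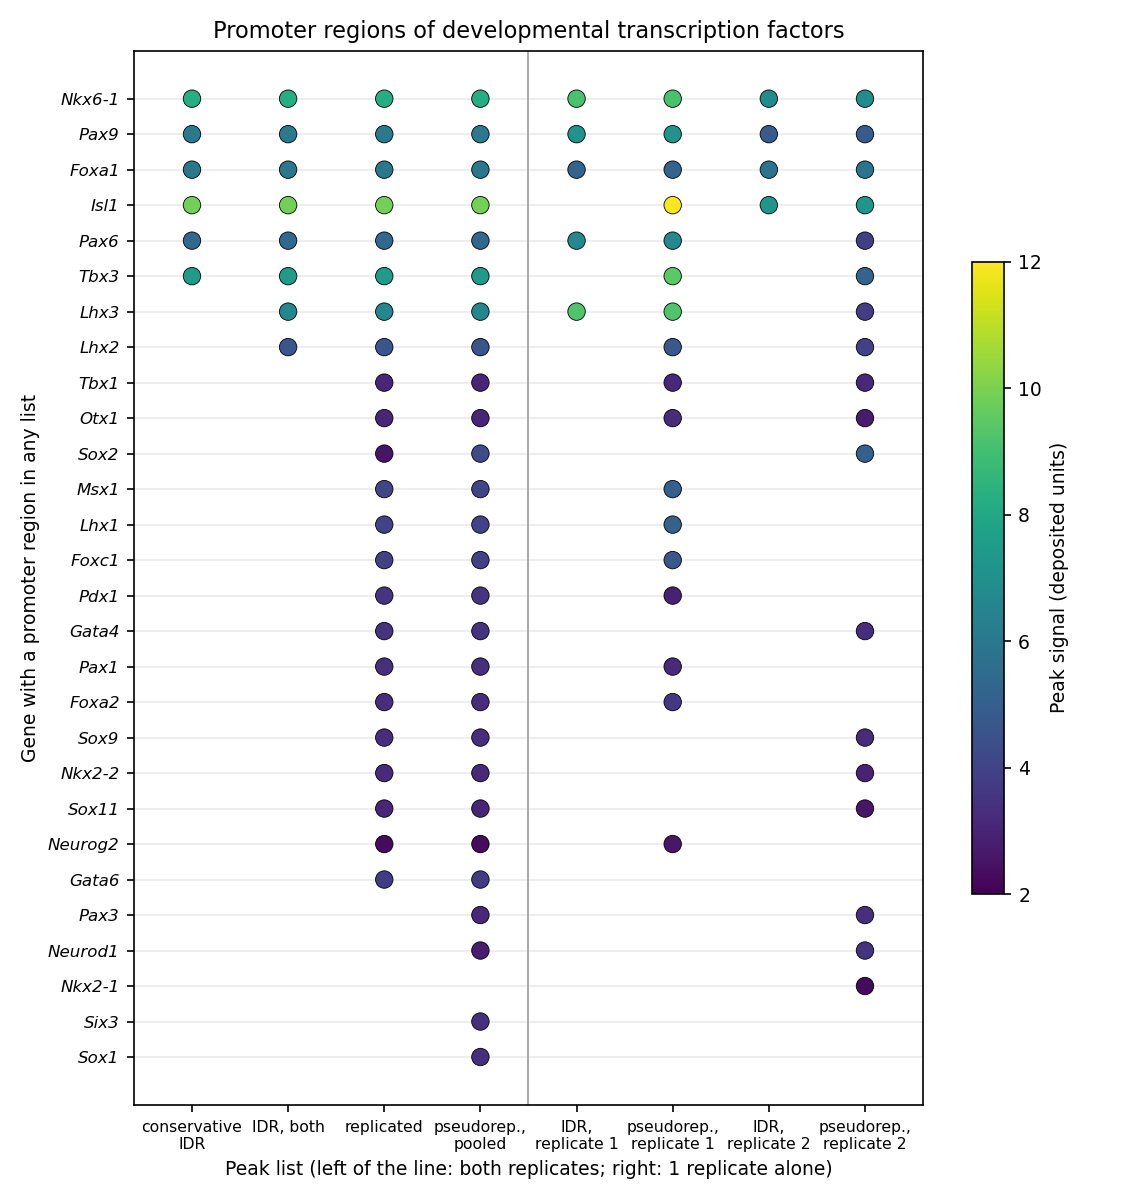
Promoter signal (colour, deposited units) of the 28 members with a promoter region in any list (rows), in each of the 8 peak lists (columns), where an empty cell means no region. Isl1, Nkx6-1, Tbx3, Pax9, Foxa1 and Pax6 fill the conservative IDR column, and the 21 members added by the pooled list have signals of 2.31 to 6.62 there.

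Lhx3 and Lhx2 came next. Both encode LIM-homeodomain factors, Lhx3 for the pituitary and motor neurons and Lhx2 for forebrain, eye and hair follicle. They were in the less strict IDR thresholded list from both libraries, which held 8 of the 47 members (17.0%), against 56.0% of all genes. Lhx3 had a signal of 9.24 in replicate 1 and 3.78 in replicate 2, the widest ratio between the libraries among the 10 members found in both permissive lists. Its summit was at -10 bp from the 5′-most TSS. Lhx2 had 4.75 in replicate 1 and 3.91 in replicate 2, with the summit 270 bp downstream of an internal TSS. Together with the main list, these 8 genes are the members in any IDR thresholded list. Replicate 1's own list held 5 of the 47 (10.6%), against 52.0% of all genes, and replicate 2's held 4 (8.51%), against 45.6%. Nkx6-1, Pax9 and Foxa1 were in both.

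In the permissive lists more of the group had a promoter region. The replicated list held 23 of the 47 (48.9%, 35.3 to 62.8), against 64.9% of all genes, and the pseudoreplicated list on pooled reads held 27 (57.4%, 43.3 to 70.5), against 66.0%. The 21 members in the pooled list and not in the main list had a median signal of 3.37, at percentile 14.1 of pooled promoter regions. Pseudoreplicated lists of the single libraries held 17 members in replicate 1 (36.2%, against 63.4% of all genes) and 18 in replicate 2 (38.3%, against 61.8%).

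Most of these weak promoters were listed in 1 library only. Of the 25 members in either library's pseudoreplicated list, 10 were in both (40.0%), against 90.7% of all genes in either list. In the band of pooled signal from 2 to under 5, 3 of 20 members were in both (15.0%), against 48.5% of 2406 genes in that band. Members were weaker within the band, with a median of 3.37 against 3.98 for all genes in it. The 3 were Lhx2, Otx1 and Tbx1. Otx1, a homeobox factor of the forebrain, had 3.24 in replicate 1 and 2.74 in replicate 2, and Tbx1, a T-box factor of the pharynx, had 3.14 in replicate 1 and 3.13 in replicate 2.

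Members in replicate 1's permissive list and not replicate 2's were Lhx1 (signal 5.16 in replicate 1), Msx1 (5.02), Foxc1 (4.71), Foxa2 (3.63), Pax1 (3.18), Pdx1 (2.92) and Neurog2 (2.61). Those in replicate 2's and not replicate 1's were Sox2 (5.04 in replicate 2), Neurod1 (3.48), Pax3 (3.38), Gata4 (3.30), Sox9 (3.22), Nkx2-2 (2.96), Sox11 (2.55) and Nkx2-1 (2.26). Sox2, a factor of pluripotent and neural stem cells, was thus the strongest of the promoters seen in replicate 2 alone. Its summit there was 632 bp downstream of the TSS, in an exon of Sox2. The replicated list held a different Sox2 region, at -500 bp with a signal of 2.51. Sox1, Six3 and Gata6 were found only in lists made from both libraries, at pooled signals of 3.37, 3.37 and 3.73. The GATA factors of gut and heart in the group, Gata4 and Gata6, were in no IDR thresholded list.

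**Figure D2:**
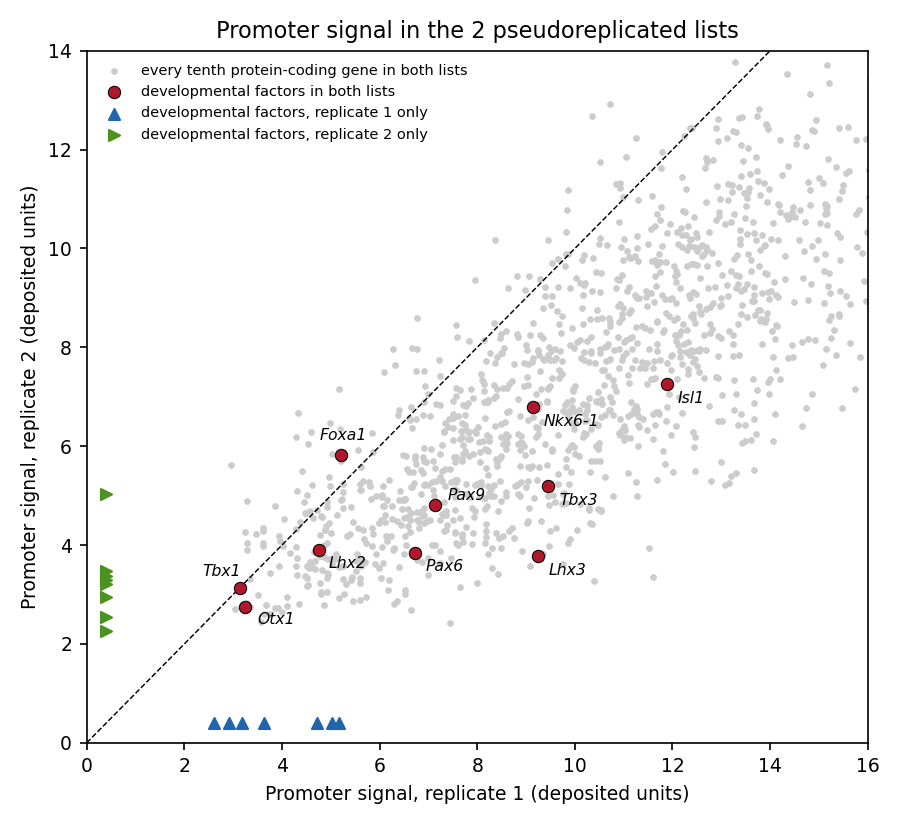
Promoter signal in replicate 1 (horizontal) and replicate 2 (vertical) in the 2 pseudoreplicated lists, both in deposited units and shown up to 16 and 14. Red points are the 10 members in both lists, triangles along the axes are members in 1 list only (7 in replicate 1, 8 in replicate 2), grey points are a sample of the protein-coding genes in both lists, and the dashed line marks equal signal. All the red points but Isl1 (11.89 and 7.26) are below the median of all genes with a promoter region in both lists. Those medians are 9.91 in replicate 1 and 6.99 in replicate 2. Of the 10, 9 lie below the line.

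Signal was higher in replicate 1 for 9 of the 10 members in both permissive lists, as it was for 93.3% of all genes in both. Across those 10 members the replicate signals had a Spearman coefficient of 0.66, and across all 13008 genes 0.80. These are descriptions over genes measured in the same 2 libraries.

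No list of the 8 held a promoter region at 19 of the 47 members (40.4%), against 32.6% of all genes. They were the kidney factors Pax2, Pax8 and Six2, the muscle factors Pax7, Myod1 and Myf5, the neural crest factors Sox10 and Foxd3, the neural factors Sox3, Otx2 and Neurog1, the heart and limb factors Nkx2-5, Hand1, Hand2 and Tbx5, the gut factors Cdx1, Cdx2 and Cdx4, and the skeletal factor Dlx5. The CDX genes, which act in embryonic blood, were thus without a promoter region in every list used here.

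Grouped by tissue, a grouping made with the values known, neural factors had the highest share in the pooled list. In the main list 3 of 16 neural factors had a promoter region, 1 of 11 for muscle, skeleton and neural crest, 1 of 9 for endoderm, 1 of 7 for heart, vessel and limb, and 0 of 4 for kidney, against 51.5% of all genes. Over the pooled list these became 13 of 16 neural, 5 of 11 muscle, skeleton and neural crest, 5 of 9 endoderm, 3 of 7 heart, vessel and limb, and 1 of 4 kidney, against 66.0% of all genes. Nkx6-1 and Isl1, counted as neural, also act in the pancreas and Isl1 in the heart.

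**Figure D3:**
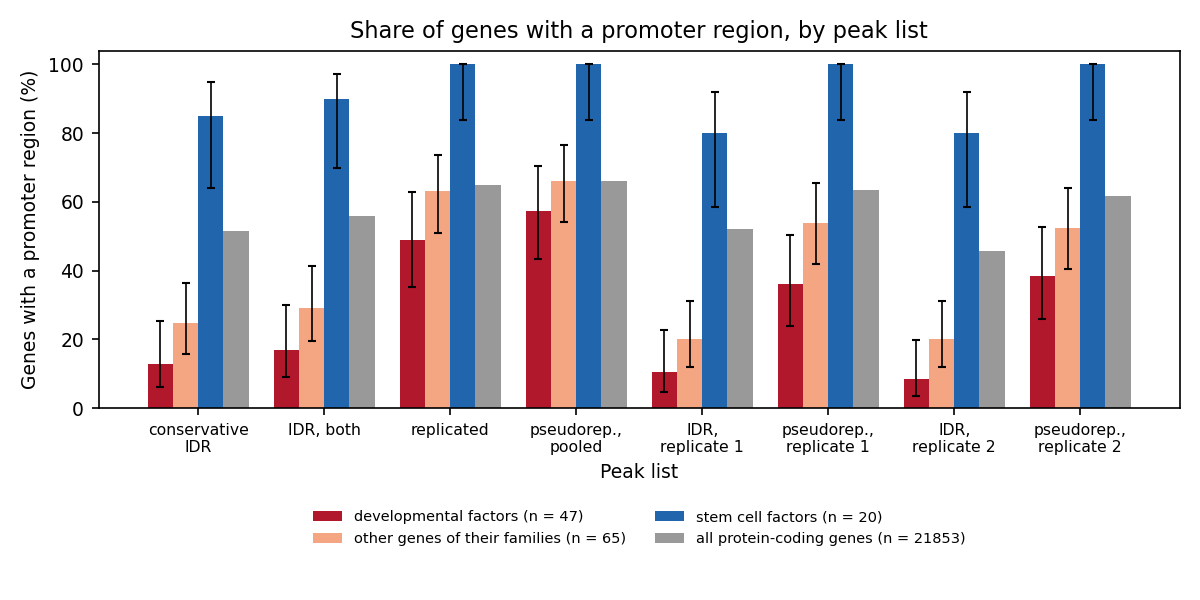
Percent of genes with a promoter region in each of the 8 peak lists, for the 47 developmental factors, 65 other genes of their families, 20 stem cell factors and all 21853 protein-coding genes; error bars are 95% Wilson intervals, which cover counting error only. The developmental factors are the lowest bar in each list, from 8.51% in replicate 2's IDR thresholded list to 57.4% in the pooled list.

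The comparison lists place these counts. The 65 other genes of the same families, taken by symbol, had a promoter region in 16 cases in the main list (24.6%, 15.8 to 36.3), against 51.5% of all genes. In the pooled list 43 of the 65 had one, close to the 66.0% of all genes. Neurod4, a neurogenic bHLH factor, led them with a signal of 14.71, then Pax5, the B cell lineage factor (9.34), and Foxa3, a forkhead factor of endoderm (8.72). Relatives of members with a known role in blood cells had one in 9 of 14 cases in the main list (64.3%, 38.8 to 83.7), led by Foxp3 (14.24), Pax5 and Foxp1 (7.44). Stem cell factors had one in 17 of 20 cases (85.0%, 64.0 to 94.8), among them Ldb1 (8.73) and Spi1 (8.42). Fli1, Mecom and Gata2 were the stem cell factors without one, and each had one in both replicates' permissive lists. The median signal was 6.78 for the 6 members and 6.32 for the 17 stem cell factors. Some genes, such as Gata2 and Pax5, stand in more than 1 of these lists.

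The members' promoters were richer in CpG than the median gene's, yet few had a region. Over 500 bp on either side of the 5′-most TSS, the ratio of observed to expected CpG had a median of 0.67 in the members, against 0.56 in all genes, and the median GC content was 58.2%, against 54.9%. Divided into quintiles of all genes by this ratio, 26 of the 47 members fell in the 2 highest quintiles. Of these 26, 4 had a promoter region (15.4%), against 81.7% of all genes in the same quintiles. From the lowest quintile to the highest, members had a promoter region in 0 of 2, 0 of 5, 2 of 14, 1 of 15 and 3 of 11 cases. All genes had one in 8.44%, 23.9%, 61.8%, 79.7% and 83.7% of cases, in the same order of quintiles. The members with the highest ratios included Sox2 (0.96), Foxc1 (0.94) and Six2 (0.93), none of them in the main list. The 6 accessible members had a median ratio of 0.80, against 0.67 in the other 41. This ratio belongs to the 5′-most TSS, while a region counts at any TSS. Pax6 (0.57) and Pax9 (0.63), the 2 accessible members of the middle quintile, had their region at a downstream TSS instead.

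**Figure D4:**
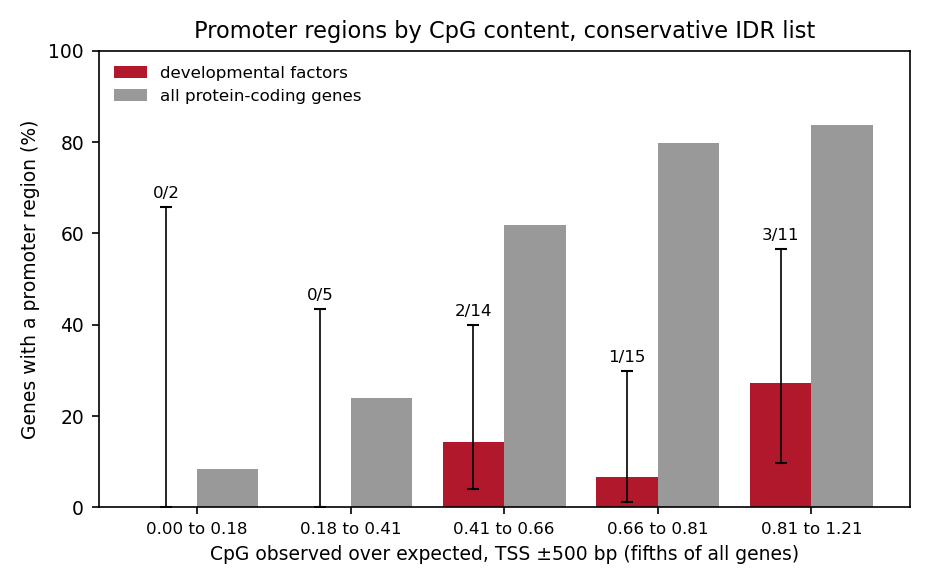
Percent of genes with a promoter region in the conservative IDR list, by quintile of the observed over expected CpG ratio around the 5′-most TSS, for the developmental factors (red, with counts and 95% Wilson intervals) and all protein-coding genes (grey). In all genes the share is 83.7% in the highest quintile, where 3 of 11 developmental factors have a region. A region counts at any protein-coding TSS of the gene.

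Away from promoters, accessible regions lay near 24 of the members in the main list, among them Cdx2, Pdx1, Cdx1, Lhx2 and Neurod1. A distal region is one whose summit lies over 1 kb from every protein-coding TSS and within 50 kb of a TSS of the member. The 24 are 51.1% of the 47 (37.2 to 64.7), against 61.9% of all genes, with a mean of 1.06 distal regions per member and 1.45 per gene. Replicate 1's IDR thresholded list gave 21 members (44.7%), against 64.3% of all genes, and replicate 2's gave 18 (38.3%), against 49.4%. The order of these shares turned in both permissive lists from both libraries, with 43 of 47 members in the replicated list (91.5%), against 81.1% of all genes, and 42 in the pooled list (89.4%), against 83.0%. The mean number of distal regions stayed lower in these lists, at 3.57 per member against 3.97 per gene in the replicated list and 3.94 against 4.61 in the pooled list. The permissive lists of single libraries differed in order, with 36 members in replicate 1's (76.6%), against 81.6% of all genes, and 38 in replicate 2's (80.9%), against 76.8%. Their means were lower for members, at 2.7 against 4.13 in replicate 1's and 2.49 against 2.88 in replicate 2's. The order of shares also turned in the main list where only regions nearest to the gene itself counted, with 20 of 47 members (42.6%), against 37.2%. Among members with no protein-coding neighbour within 50 kb, 13 of 31 had a distal region (41.9%), against 52.7% of all such genes. Only Tbx3 and Pax9 had both a promoter and a distal region, 22 members had distal regions alone, and 19 had neither (40.4%, against 24.7% of all genes).

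The main list held 44 distinct distal regions near members, with a median signal of 7.45, against 7.96 for all 20306 distal regions, and a median width of 470 bp, against 508 bp. A member's TSS was the nearest one for 29 of them and another gene's for 15, and 6 lay within 50 kb of both members of a pair. Summits fell in intergenic sequence in 29 cases, in introns in 9 and in exons in 6. Both replicates' IDR thresholded lists held 19, replicate 1's alone 12, replicate 2's alone 4 and neither 9, while 42 were in the permissive lists of both. Replicate 1's IDR thresholded list thus held 70.5% of them, against 79.6% of all distal regions, and replicate 2's held 52.3%, against 55.8%. Without replicate 1, that is in replicate 2's shorter list, there were 27 distal regions near members. With a window of 20 kb there were 14 members (29.8%), against 39.2% of all genes, and 23 regions. With regions of above-median signal only there were 11 members (23.4%), against 38.8% of all genes.

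The strongest distal regions lay near Pax9, Sox10, Lhx2, Cdx2 and Neurod1, and the 3 of highest signal outside exons are printed on the plus strand of GRCm38.p6 (RefSeq), with the same motifs in capitals, to show elements that were accessible near genes with weak or no promoter regions.
Pax9, 13.9 kb upstream, chr12:56677745-56677945: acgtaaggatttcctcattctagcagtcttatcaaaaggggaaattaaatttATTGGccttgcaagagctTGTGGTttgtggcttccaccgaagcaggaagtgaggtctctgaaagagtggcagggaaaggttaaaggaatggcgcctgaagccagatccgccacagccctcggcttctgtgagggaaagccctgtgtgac
Sox10, 44 kb upstream, chr15:79209171-79209371: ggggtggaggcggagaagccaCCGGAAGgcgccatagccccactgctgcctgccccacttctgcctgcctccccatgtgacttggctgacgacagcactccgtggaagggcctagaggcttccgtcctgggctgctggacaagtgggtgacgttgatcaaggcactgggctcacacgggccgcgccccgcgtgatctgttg
Neurod1, 42.8 kb upstream, chr2:79499405-79499605: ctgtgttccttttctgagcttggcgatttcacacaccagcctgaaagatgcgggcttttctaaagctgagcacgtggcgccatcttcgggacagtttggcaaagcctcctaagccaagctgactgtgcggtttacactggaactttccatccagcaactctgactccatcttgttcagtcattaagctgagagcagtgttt

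The Pax9 region, with a signal of 12.32, was at percentile 93.5 of all distal regions. It had 12.36 in replicate 1 and 11.26 in replicate 2, and its nearest gene was Pax9 itself. The printed sequence holds the RUNX letters and a CCAAT box on the opposite strand.

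The Sox10 region had a signal of 12.27, with 13.99 in replicate 1 and 9.63 in replicate 2. Sox10 encodes the master regulator of glia and melanocytes and had no promoter region in any list. The nearest protein-coding TSS was that of Pick1, 19902 bp away, and a noncoding gene, Gm10863, started within 1 kb. The ETS letters stand near the start of its sequence.

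Lhx2 had 3 distal regions, all nearest to Lhx2 itself. The strongest, in an exon of Lhx2 16.5 kb downstream of the closest TSS, had a signal of 11.97, with 14.20 in replicate 1 and 9.07 in replicate 2. Another lay 20 kb upstream, with 10.31 in the main list, 9.10 in replicate 1 and 9.76 in replicate 2. The last lay 26 kb downstream with a signal of 5.78. The stronger pair was at percentiles 92.2 and 81.6 of all distal regions. The Lhx2 promoter, in the list from both libraries, had a signal of 4.61.

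Neurod1, a bHLH factor of neurons and endocrine pancreas, also had 3, with signals of 10.41 (42.8 kb upstream), 9.72 (2.43 kb downstream, in an exon of Neurod1) and 6.41 (9.37 kb downstream, in an intron of Cerkl). The 10.41 region had 10.20 in replicate 1 and 7.85 in replicate 2, and the 9.72 region had 10.73 in replicate 1 and 6.84 in replicate 2. A noncoding gene, Gm26755, started within 1 kb of the 9.72 region. The Neurod1 promoter was listed at 3.48 in replicate 2's permissive list and 2.81 in the pooled list, and in no list of replicate 1.

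Cdx2 and Pdx1 are neighbours on chromosome 5, and they had the most distal regions, 6 and 5, of which 4 were within 50 kb of both. Cdx2 encodes a homeodomain factor of intestine and trophoblast, and Pdx1 the founding factor of the pancreas. Flt3, the cytokine receptor of multipotent blood progenitors, lies beside them. The strongest of the Cdx2 regions, 34 kb upstream with a signal of 10.71, had its summit in an exon of Flt3, with 11.54 in replicate 1 and 9.34 in replicate 2. For 4 of the 6 Cdx2 regions the nearest TSS was that of Urad, a urate pathway gene between Cdx2 and Flt3. The stronger region between Pdx1 and Cdx2, 13.9 kb downstream of the Cdx2 TSS, had a signal of 9.69, with 9.94 in replicate 1 and 7.52 in replicate 2. Its window held the CTCF motif. A weaker one between them, 7.93 kb downstream of the same TSS, had a signal of 5.81 and no CTCF motif. The Pdx1 promoter had 2.92 in replicate 1's permissive list and 3.55 in the pooled list, and Cdx2 had no promoter region in any list.

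Cdx1 had 4 distal regions, with signals of 4.98 to 7.93. The strongest lay 2.38 kb downstream of its TSS in an intron of Cdx1, with 7.69 in replicate 1 and 7.25 in replicate 2. Another, at 7.07, lay in an intron of Pdgfrb, a neighbour whose own promoter had a signal of 5.79 in the main list. Six2, a factor of kidney progenitors, had 3 distal regions, as Lhx2 and Neurod1 did, with signals of 9.05, 8.10 and 5.84. Its strongest region lay 40.3 kb upstream, with 11.18 in replicate 1 and 5.73 in replicate 2, and the other pair was also within 50 kb of Six3. Near Tbx1, a region 27.2 kb upstream (signal 7.26) had Gp1bb, a platelet receptor gene, as its nearest gene at 3803 bp.

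Nkx2-5 and Foxa2 complete the 10 regions of highest signal. Nkx2-5, a heart factor with no promoter region, had one 41.3 kb upstream with a signal of 9.84, 11.05 in replicate 1 and 7.62 in replicate 2. The protein-coding gene nearest to this region was Kifc5b, and a noncoding gene, Gm17382, started within 1 kb. A weaker region of 8.87 lay 40.1 kb upstream. Foxa2, a forkhead factor of endoderm and floor plate, had one 35.5 kb upstream with a signal of 9.22, which had 10.20 and 6.56 in the permissive lists of replicates 1 and 2 and was in neither IDR thresholded list.

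**Figure D5:**
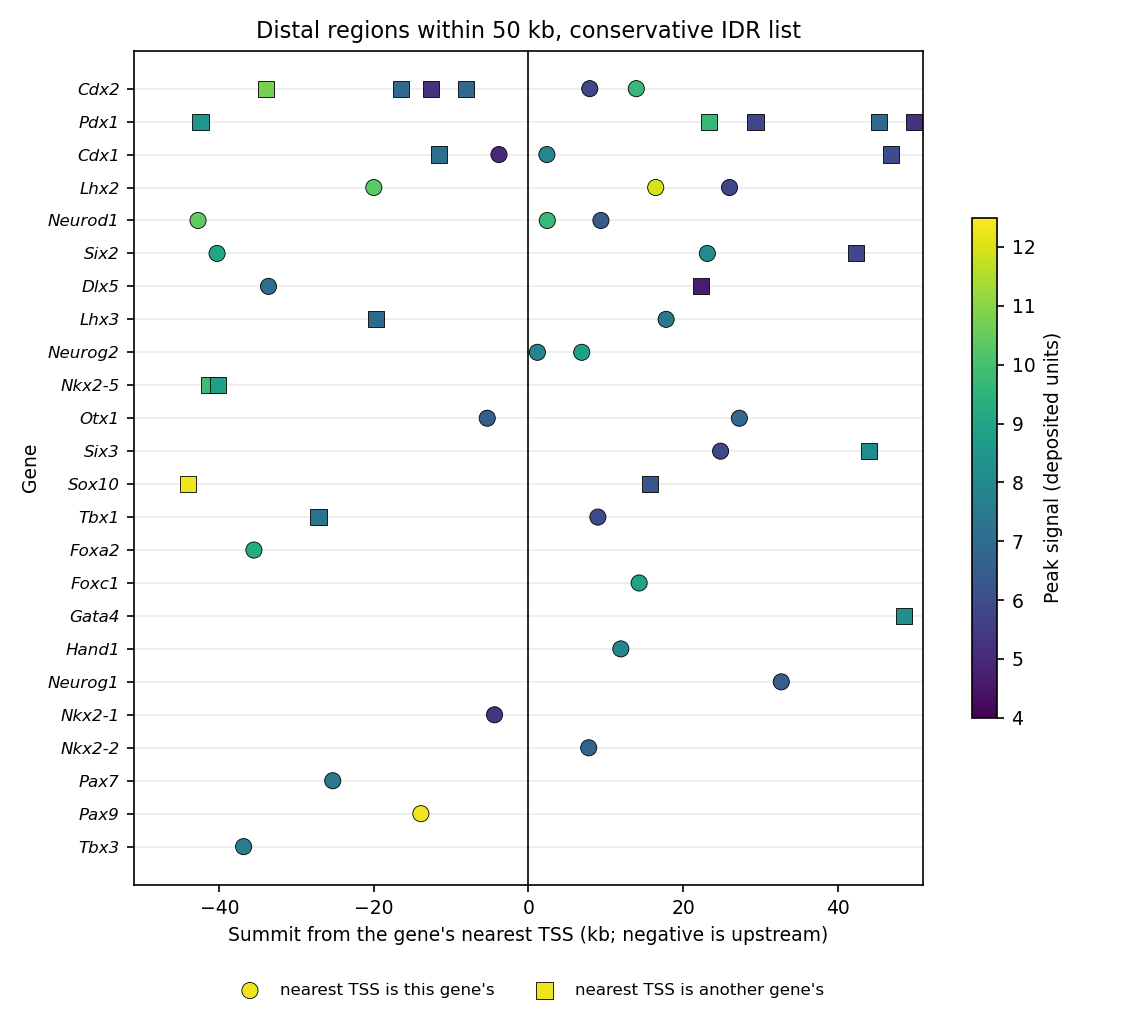
Position of each distal region of the conservative IDR list relative to the nearest TSS of the member (horizontal, kb, negative upstream), for the 24 members with at least 1 (rows); colour gives the signal in deposited units, circles mark regions whose nearest protein-coding TSS is the member's and squares those nearest to another gene. Cdx2 and Pdx1 have the most regions, 6 and 5, and the strongest lie near Pax9 (12.32) and Sox10 (12.27).

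Within 100 bases of the summit, 11 of the 44 distal windows held the CTCF motif (25.0%), against 13.8% of all distal windows. RUNX letters were in 12 (27.3%, against 30.4%), GGGCGG in 8 (18.2%, against 11.5%), CCAAT in 9 (20.5%, against 20.3%), ETS letters in 3 (6.82%, against 3.15%) and GATA letters in 1 (2.27%, against 8.71%). The 1 with GATA letters was the weakest Cdx1 region. These matches describe letters in a window and not binding, and the CTCF motif was added after the regions were seen.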

How the data were processed

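Peak signal values come from mm10 lists that the authors deposited, per the labels. No control or scaling is stated. Which aligner and peak caller were used, and whether the transposase's insertion offset was corrected, is not given in the sources used here. The IDR thresholded and pseudoreplicated lists of each replicate were made on that library alone, and the other 4 from both, per the deposited notes. Signals in the lists of both replicates were those of the same peaks wherever the region was the same.

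Peaks that overlap were joined, and each joined region took the summit and signal of its highest peak. Genes and TSSs came from GENCODE M21 (21 chromosomes) and sequence from GRCm38.p6. Shares have 95% Wilson intervals. The steps ran in Python 3.11.15 with pandas 2.3.3, NumPy 2.4.6, SciPy 1.17.1 and pysam 0.24.0, and the assignment was tested on simulated peaks. The members and lists were chosen with earlier results of these data known. With 1 group and a list chosen by name, no test was made, and members are read against all genes. Named in full are the members with a main promoter region, the 5 with most distal regions (ties by symbol, and Six2, tied, added after values were seen) and the 10 distal regions of highest signal. The CTCF motif, the tissue grouping, the signal band and other named members were chosen after values were seen. Alternatives were other lists, windows, TSS sets and single replicates. Some genes of the comparison and marker lists are not reported here by name.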

Additional observations from a re-analysis of the deposited data

How the results depend on the processing

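The count of members with a promoter region, 6 in the main list, was 4 to 5 in the IDR thresholded list of 1 replicate alone. It was 23 in the replicated list, 27 in the pooled list, 17 and 18 in the pseudoreplicated lists of replicates 1 and 2 (an alternative chosen after seeing the data) and 1 with regions of above-median signal only. It stayed within 1.5 times with other promoter windows: 5 at 500 bp, 7 with any overlap, and 9 at 2500 bp, where Neurog2, Neurod1 and Cdx1 joined. In each of these settings the share of all genes was higher. Members with a distal region were 24 in the main list (51.1%, against 61.9% of all genes). The IDR thresholded list of replicate 1 gave 21 (44.7%, against 64.3%) and that of replicate 2 gave 18 (38.3%, against 49.4%). There were 11 with above-median signal (23.4%, against 38.8%) and 14 within 20 kb (29.8%, against 39.2%). The order turned in the replicated list (43, or 91.5%, against 81.1%) and the pooled list (42, or 89.4%, against 83.0%). It also turned counting the nearest gene only (20, or 42.6%, against 37.2%). Pseudoreplicated lists of replicates 1 and 2, also chosen after seeing the data, gave 36 (76.6%, against 81.6%) and 38 (80.9%, against 76.8%). Distal regions near members, 44 in the main list, were 27 to 38 with 1 replicate, 159 and 177 in the replicated and pooled lists, 15 with above-median signal, 23 within 20 kb, 87 within 100 kb and 29 counting the nearest gene only. No paired analysis was possible because there is 1 group. Depth is unknown, so a promoter in no list is undetected at the depth of these libraries, not shown closed.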

Other observations

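In the permissive replicated list 43 of the 47 members had a distal region within 50 kb (91.5%), against 81.1% of all genes. These were 159 distinct regions with a median of 3 per member, the same median as over all genes. Cdx2, Cdx1 and Pdx1 had the most there (11, 9 and 8), and Nkx2-2, Lhx2, Hand1, Dlx5 and Myod1 had 6 each. Lhx1, Otx2, Sox11 and Gata6 had none.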
